A study of Homo sapiens with 2 samples.

Results

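The genes described here encode proteins of Polycomb repression, of the HUSH complex and of histone H3 lysine 9 (H3K9) methylation. They were 53 of 20046 protein-coding genes in GENCODE, and their mRNAs were searched for binding sites of YBX1, an RNA-binding protein with a cold shock domain. A listed site was assigned to a gene when its midpoint lay in the gene's span on the site's own strand, on hg38. By this rule 29 of 2054 listed sites lay in these genes and 2025 lay elsewhere. YBX1 binding was mapped by PAR-CLIP in HEK293, a cell line derived from human embryonic kidney. In this assay 4-thiouridine is built into new RNA, crosslinks to bound protein under UV light, and the bound RNA is trimmed by RNase T1, which cuts after G. According to the methods, the line was T-REx HEK293 Flp-In with stable overexpression of YBX1 that carried a FLAG/HA tag, and the tag was used for the pull-down. The labels instead give HEK293 and an antibody raised against YBX1 (D2A11). There was 1 group of 2 replicates and no control group.

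Both replicates were pooled by the authors in 1 list of positions without a read count or score. The depth behind a site is therefore unknown, no spread between replicates could be given, and no test was run. The intervals given are 95% intervals of counting error alone, Wilson intervals for shares and exact Poisson intervals for numbers of sites. RNA levels in these cells were not used here, so a gene without a listed site cannot be told apart from a gene whose mRNA was scarce.

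Trimethylation of H3K9 marks heterochromatin, where repeats, retroviral elements and clusters of zinc finger genes are kept silent. SETDB1, SUV39H1 and their relatives write the mark, the HUSH complex brings SETDB1 to newly integrated and intronless elements, and KRAB zinc finger proteins bring it to repeats through the corepressor TRIM28. Polycomb repression acts on developmental genes, where PRC2 methylates H3 lysine 27 and PRC1 ubiquitinates histone H2A. Deacetylases and the nucleosome remodeller CHD4 work in several of these pathways.

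Of the 53 genes, 13 held at least 1 YBX1 site, a share of 24.5% (14.9 to 37.6%), against 6.81% of all protein-coding genes. The 53 genes were chosen with earlier results of these data known, so their shares describe this list only. All protein-coding genes also include genes whose RNA may be scarce in these cells. No difference from all genes was tested. The sites were unevenly spread among the 13. TASOR2 held 8, HDAC2 held 4, ADNP and RYBP held 3 each, ATF7IP and RBBP7 held 2 each, and SETDB2, TRIM28, CHD4, AEBP2, PHF19, YAF2 and BMI1 held 1 each. The 4 genes with the most sites thus carried 18 of the 29. Genes with 3 or more sites made up 7.55% of the 53 (4 genes, 2.97 to 17.9%) and 0.524% of all protein-coding genes. The mRNAs of the 53 genes had a median of 4466 nt. Among mRNAs at least that long, 8 of 27 from the 53 genes had a site (29.6%), against 576 of 5571 from all genes (10.3%). Lengths above that cut-off and RNA levels were not matched, and a part played by length was not tested.

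**Figure D1:**
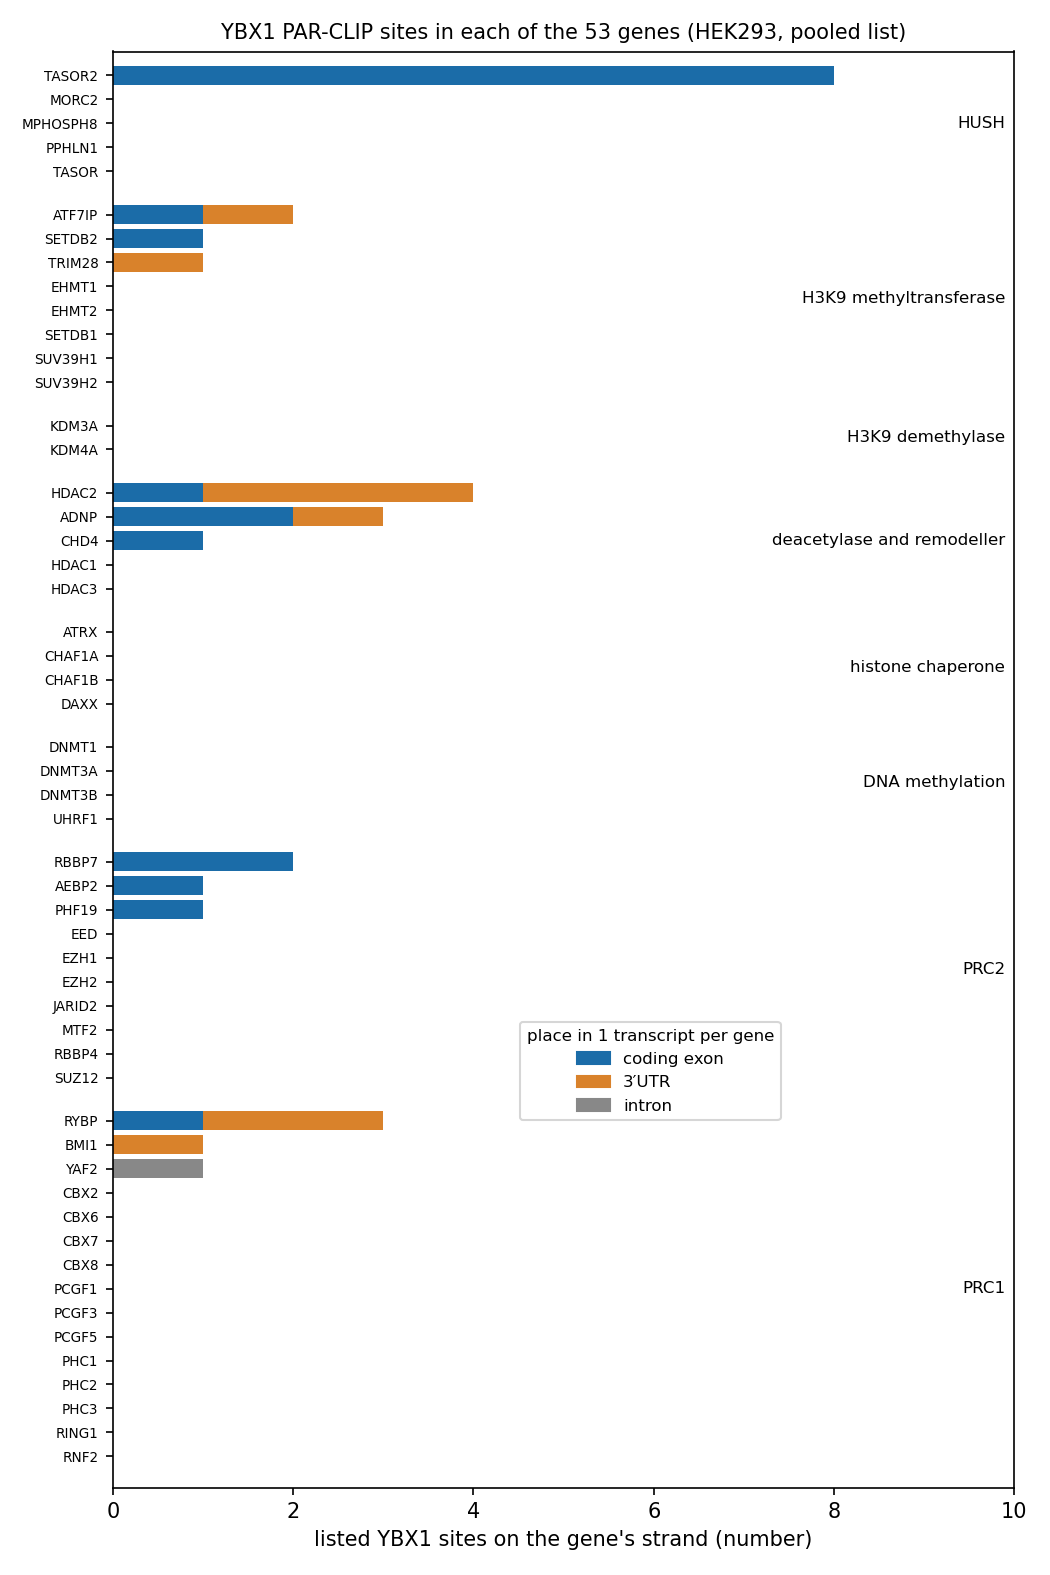
Number of listed YBX1 sites (horizontal axis) in each of the 53 genes, grouped by role, with bar segments coloured by the place of the site in 1 transcript per gene. TASOR2 has 8 sites, all in coding exons, and 40 genes have none.

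By role, sites were found in the HUSH group (1 of 5 genes, 3.62 to 62.45%, 8 sites), all in TASOR2, a paralogue of the HUSH subunit TASOR. Sites also lay in H3K9 methyltransferases and their cofactors (3 of 8 genes, 13.7 to 69.4%, 4 sites) and in deacetylases and remodellers (3 of 5 genes, 23.1 to 88.2%, 8 sites). PRC2 had them in 3 of 10 genes (10.8 to 60.3%, 4 sites) and PRC1 in 3 of 15 (7.05 to 45.2%, 5 sites). No site was listed in the 2 H3K9 demethylases (0 to 65.8%), the 4 histone chaperone genes or the 4 genes of DNA methylation (0 to 49.0% each). With so few genes, these 3 intervals include the 6.81% of all protein-coding genes. Differences between roles were not tested. Polycomb genes and the others had sites in a like share, 6 of 25 (24.0%, 11.5 to 43.4%) and 7 of 28 (25.0%, 12.7 to 43.4%). The others held 20 sites and the Polycomb genes 9.

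TASOR2, a paralogue of the HUSH scaffold protein TASOR, had the most sites of the 53 genes. Its 8 sites (Poisson interval 3.45 to 15.8) were exceeded by 3 genes of the whole list and equalled by 1. All 8 lay in coding exons of its main transcript, and no nuclear gene had as many sites in coding exons. The next were MED13 and ZNF850 with 5 each, while 2 mitochondrially encoded genes had more. These ranks do not account for length, and the coding sequence of TASOR2 has 7293 nt. Per kb of coding sequence TASOR2 had 1.10 sites, fewer than RBBP7 (1.57, from 2 sites) and RYBP (1.53, from 1 site). The RYBP transcript model lacks the start codon, so its coding length of 655 nt is incomplete. The authors' gene column lists the TASOR2 sites under FAM208B, an older symbol of the gene. The sequences of 7 of the 8 sites are shown because they carry the largest group of sites in these genes. They are written 5′ to 3′ on the RNA strand with capitals marking CAUC or CACC, which are tetramers that the cold shock domain of YBX1 is known to prefer. Site 3 (chr10:5742392-5742422) has 31 nt and is not printed.
TASOR2 site 1 (chr10:5731147-5731166, + strand): acucuccaacaacucuuaag
TASOR2 site 2 (chr10:5740447-5740468, + strand): caaauauaccaacaacccacug
TASOR2 site 4 (chr10:5747275-5747299, + strand): cucuaacaauauCACCACCuacaag
TASOR2 site 5 (chr10:5748415-5748432, + strand): cuacauuaacccauuaug
TASOR2 site 6 (chr10:5748570-5748594, + strand): uccaaCACCaCAUCuucucuaaaag
TASOR2 site 7 (chr10:5749198-5749218, + strand): ccaacuucucuauaacaaaag
TASOR2 site 8 (chr10:5756686-5756707, + strand): auacacuaauCAUCAUCAUCag

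The TASOR2 sites were spread along most of the coding sequence of 7293 nt. Counting the first base of the start codon as 1, they began at nt 1148, 2277, 2623, 3854, 4994, 5149, 5777 and 6680, so the first began at 15.7% and the last at 91.6% of the coding sequence. Neighbouring sites were 137 to 1200 nt apart on the mRNA. Exon 16, which has 3849 nt and makes up 44.2% of the mRNA, held 4 of them, and exons 12, 14, 15 and 17 of the 22 exons held 1 each. The density in exon 16 was 1.04 sites per kb and that over the whole coding sequence was 1.10 per kb. The 3′UTR of 708 nt held none. In transcripts marked for nonsense-mediated decay, sites 1, 2 and 8 fall behind an earlier stop codon and count as 3′UTR when all transcripts are used. A noncoding gene on the other strand, ENSG00000226647, overlaps sites 1 to 3. All 8 sequences occur once in the genome.

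In the TASOR2 sites, A and C made up 71.2% of their bases (64.3 to 77.3%). The tetramer AACA was in 6 of the 8 sites (40.9 to 92.85%) and CAAC in 4 (21.5 to 78.5%). CACC was in 3 (13.7 to 69.4%) and CAUC in 2 (7.15 to 59.1%). Other coding sites held AACA in 38.7%, CAAC in 40.3%, CACC in 21.9% and CAUC in 32.1%. The intervals for CAAC, CACC and CAUC include these shares, and that for AACA lies above its share. AACA and CAAC were taken from earlier results on this list of sites, and no difference was tested. Sites 1 and 2 share the 8-nt word CCAACAAC, sites 3 and 6 share AACACCAC, and sites 6 and 7 share CUUCUCUA. TASOR2 sites also share words of 8 or 9 nt with sites of RBBP7, ATF7IP, PHF19, CHD4, RYBP and BMI1. Over the 29 sites, 15 of 406 pairs share at least 8 nt (3.70%), and most of these pairs hold a TASOR2 site. Among the other sites with a sequence found at 1 place in the genome, 2.12% of pairs share as much. The 29 sites were not limited in this way and include RYBP site 3, whose sequence occurs at 3 places. The shares were not matched for place in the mRNA, and their difference was not tested. All 8 TASOR2 sites were preceded by G, had G as their last base and held no other G, the ends that RNase T1 leaves. These traits were common elsewhere too. Of 613 other coding sites, 89.2% were preceded by G, 95.3% ended in G and 81.6% held no other G. The last base depends on the listed end being read as 1 past it, a reading tied to this G.

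**Figure D2:**
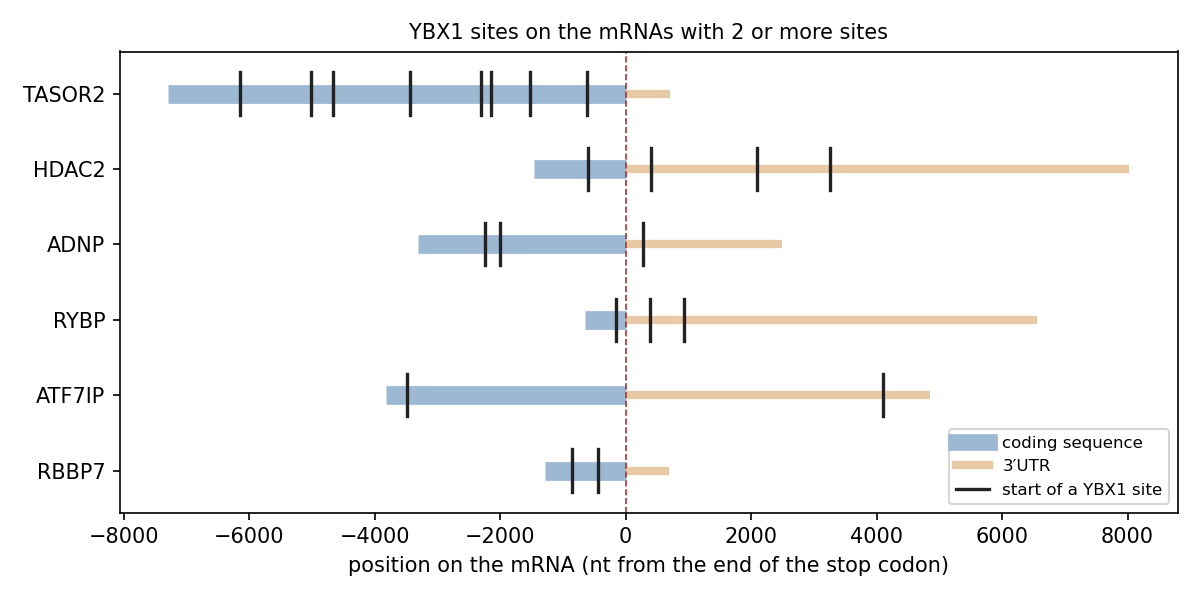
Coding sequence (thick bars) and 3′UTR (thin bars) of the 6 mRNAs with 2 or more sites, aligned at the end of the stop codon (dashed line), with a black mark at the start of each YBX1 site. The horizontal axis is the position on the mRNA in nt. The 8 marks of TASOR2 all lie before the stop codon, whereas HDAC2, ADNP, RYBP and ATF7IP have marks on both sides.

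The genes of the HUSH group other than TASOR2 had no listed site on their strand. These were TASOR, the scaffold of the complex, MPHOSPH8, whose chromodomain reads H3K9 methylation, PPHLN1, the periphilin subunit, and MORC2, an ATPase that works with HUSH. Their 3′UTRs had 672 to 2905 nt. The authors' gene column names MPHOSPH8 at 1 site (chr13:19675556-19675575), which lies on the opposite strand and 2115 nt outside the gene. The span of PPHLN1 holds a site of the opposite strand (chr12:42312836-42312859) that the authors' column gives to ZCRB1.

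Among the H3K9 methyltransferases and their cofactors, YBX1 sites lay in ATF7IP, which stabilises SETDB1 in the nucleus, in SETDB2, a methyltransferase related to SETDB1, and in TRIM28. ATF7IP had a site near the start of its coding sequence (nt 337 of 3813) and another far into its 3′UTR (nt 4106 of 4857), 7560 nt apart on the mRNA. SETDB2 had a site at nt 800 of its coding sequence. The TRIM28 site filled the end of a 3′UTR of only 162 nt, from nt 140 to 2 nt before the end of the transcript. That sequence includes AAUAAA, the usual signal for cleavage and polyadenylation, a hexamer looked at after the sequence was seen and found in 1 of the 9 3′UTR sites of these genes and in 28 of 946 elsewhere (2.96%). The authors' columns give the TRIM28 site to MIR6807 and call it a transcript end. The sequences are shown to set the TRIM28 transcript end beside the ATF7IP and SETDB2 sites, and capitals again mark CAUC or CACC.
ATF7IP site 1 (chr12:14424252-14424273, + strand): ucuccccauaauauaacuccag
ATF7IP site 2 (chr12:14502179-14502202, + strand): caauaucaaauaacucuaaaaccg
SETDB2 site (chr13:49476970-49476994, + strand): cauauaaucuaaccaacuuuuccag
TRIM28 site (chr19:58550693-58550713, + strand): auuuaauaaaaacuuCACCag

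SETDB1 itself had no listed site, nor had SUV39H1, SUV39H2, EHMT1 or EHMT2, with 3′UTRs of 325 to 1803 nt. The same held for KDM4A and KDM3A, which remove H3K9 methylation and have 3′UTRs of 597 to 1148 nt. ATRX and DAXX, which place histone H3.3 in heterochromatin, and CHAF1A and CHAF1B of the replication-coupled chaperone CAF-1 had none, with 3′UTRs of 185 to 3471 nt. DNMT1, DNMT3A, DNMT3B and UHRF1, which copy or set DNA methylation, had none either, although the 3′UTR of DNMT3A has 6405 nt.

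Sites lay in 3 of the 5 deacetylase and remodeller genes, in equal numbers in coding exons (4) and 3′UTRs (4). HDAC2, a class I deacetylase of the NuRD, Sin3 and CoREST complexes, had 1 site at nt 866 of its coding sequence and 3 in its 3′UTR of 8030 nt, at nt 411, 2092 and 3256 after the stop codon. The longer stretch downstream of the last one held no listed site. The authors' columns give the 3 3′UTR sites no gene name and class them as noncoding. ADNP, which joins CHD4 and HP1 in the ChAHP complex, had 2 coding sites at nt 1070 and 1314, 219 nt apart, and 1 site at nt 280 of its 3′UTR, all in the last exon. Its coding sites share the 9-nt word UUCCUCAAC. CHD4, the ATPase of NuRD, had 1 site at nt 2345 of its coding sequence, and a readthrough gene (ENSG00000285238) also spans it. The sequences are shown to set the coding sites beside the 3′UTR sites of the same mRNA, with capitals as above.
HDAC2 site 1, coding (chr6:113946099-113946124, − strand): uaaaaacuuuuaacuuaccauuacug
HDAC2 site 2, 3′UTR (chr6:113940630-113940647, − strand): acuuacaauacacucuag
HDAC2 site 3, 3′UTR (chr6:113938948-113938966, − strand): acacuucaauacuauacug
HDAC2 site 4, 3′UTR (chr6:113937784-113937802, − strand): auaucucacuaCAUCuuag
ADNP site 1, coding (chr20:50893620-50893644, − strand): uuuccauuccucaacaaucucaguc
ADNP site 2, coding (chr20:50893379-50893400, − strand): uaacacuuccucaacucaaaag
ADNP site 3, 3′UTR (chr20:50891101-50891125, − strand): ccuuuucaacauuucuuucccucug
CHD4 site, coding (chr12:6593561-6593585, − strand): ccccucuuucuacCAUCAUCaacug

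HDAC1, the closest relative of HDAC2, and HDAC3 had no listed site, and their 3′UTRs have 582 and 587 nt. The authors' column names HDAC1 at 1 site (chr1:32333883-32333905), which lies on the opposite strand and 248 nt outside the gene.

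In PRC2, all 4 sites lay in coding exons. RBBP7, a histone-binding WD40 protein shared with NuRD and other complexes, had sites at nt 419 and 831 of a coding sequence of 1278 nt, a density of 1.57 per kb. AEBP2, an accessory subunit that helps PRC2 bind nucleosomes, had a site at nt 911, and its 3′UTR of 4110 nt held none. PHF19, whose Tudor domain reads H3K36 methylation, had a site at nt 1609, which ended 110 nt before the stop codon and which the authors' annotation calls noncoding. The catalytic subunits EZH1 and EZH2 and the core subunits EED and SUZ12 had no site, nor had JARID2, MTF2 and RBBP4, with 3′UTRs of 263 to 6506 nt.

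In PRC1, 3 of 5 sites lay in 3′UTRs, 1 in a coding exon and 1 in an intron. RYBP, a subunit of variant PRC1 that binds ubiquitinated H2A, held 3 sites in a last exon of 6813 nt. Its coding site ended 125 nt before the stop codon and holds CAUC 3 times, and the other two began at nt 388 and 938 of a 3′UTR of 6560 nt. The start codon is missing from the RYBP transcript model, so no position from the start is given. The sequence of RYBP site 3 occurs at 3 places in the genome, and it is the only one of the 29 that does not occur once. YAF2, the close relative of RYBP, had a single site in an intron (chr12:42213808-42213828), with no CAUC or CACC. BMI1, the PCGF subunit of canonical PRC1, had a site at nt 347 of its 3′UTR of 1942 nt (chr10:22329889-22329908). The PRC2 and RYBP sequences are shown because each but RBBP7 site 2 holds CAUC or CACC.
RBBP7 site 1, coding (chrX:16858718-16858738, − strand): cuacaaaaaCACCAUCuucug
RBBP7 site 2, coding (chrX:16852783-16852803, − strand): ccucucauucaaucccuacag
AEBP2 site, coding (chr12:19473279-19473300, + strand): uauauaacacucCAUCuaccag
PHF19 site, coding (chr9:120858057-120858078, − strand): uCAUCuauCACCaacuacuuug
RYBP site 1, coding (chr3:72378513-72378538, − strand): cuccuCAUCgaCAUCcuCAUCcacag
RYBP site 2, 3′UTR (chr3:72377977-72377997, − strand): ucacaaacucCAUCcuuucag
RYBP site 3, 3′UTR (chr3:72377429-72377447, − strand): aauucCAUCcauuuuccag

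The remaining 12 PRC1 genes had no listed site. They were the E3 ligases RING1 and RNF2, the PCGF subunits PCGF1, PCGF3 and PCGF5, the chromobox proteins CBX2, CBX6, CBX7 and CBX8, which read H3K27 methylation or bind DNA, and the Polyhomeotic proteins PHC1, PHC2 and PHC3. Their 3′UTRs had 100 to 9646 nt, the longest being that of PHC3.

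Genes with a site and genes without one overlapped in length. The mRNAs of the 13 genes with a site had 2281 to 9737 nt (median 6203), and those of the 40 genes without a site had 907 to 12652 nt (median 4377). The 3′UTRs had a median of 2487 nt in genes with a site (162 to 8030) and of 1620 nt in genes without one (100 to 9646). The coding sequences had a median of 1743 nt in genes with a site (543 to 7293) and of 2234 nt in genes without one (729 to 7479).

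**Figure D3:**
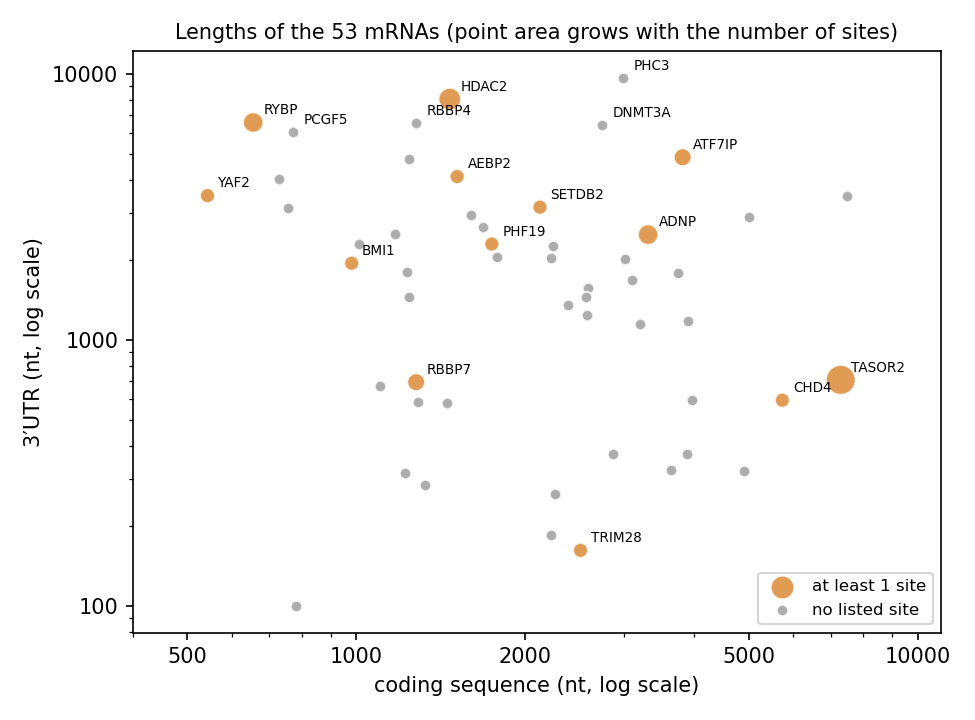
Length of the 3′UTR (vertical axis, nt, log scale) against that of the coding sequence (horizontal axis, nt, log scale) in 1 transcript for each of the 53 genes. Orange points have at least 1 site and their area grows with the number of sites, and grey points have none. Genes with a site have 3′UTRs from 162 nt (TRIM28) to 8030 nt (HDAC2), and the shortest and the longest 3′UTR belong to genes without one.

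Sites in coding exons outnumbered those in 3′UTRs, whereas among the other listed sites 3′UTRs came first. The difference was not tested. Of 28 sites in mRNA exons of 1 transcript per gene, 19 were in coding exons (67.9%, 49.3 to 82.1%), 9 in 3′UTRs (32.1%, 17.9 to 50.7%) and 0 in 5′UTRs. Of the 1582 such sites of all other genes, 38.8% (36.4 to 41.2%) were in coding exons and 59.9% (57.5 to 62.3%) in 3′UTRs. By the lengths of the coding sequence and UTRs of each transcript alone, 3′UTRs would hold 12.0 of the 28 sites, and they held 9, while for the other genes they would hold 863 of the 1582 sites, and they held 948. TASOR2 carried much of the difference. Without it, 11 of 20 sites were in coding exons (55.0%, 34.2 to 74.2%) and 9 in 3′UTRs (45.0%, 25.8 to 65.8%), where lengths would give 11.3, and the interval for coding exons then included the 38.8% of the other genes. Counted by gene, 10 of the 53 had a coding site (18.9%, 10.6 to 31.4%), against 2.62% of all protein-coding genes, and 6 had a 3′UTR site (11.3%, 5.29 to 22.6%), against 3.73%. These shares too come from genes chosen with earlier results of these data known. With all transcripts and 3′UTRs taken first, 12 of the 29 sites (41.4%, 25.5 to 59.3%) and 55.6% of the 2025 others were in 3′UTRs. In the authors' annotation 5 of the 29 sites were 3′UTR and 18 exon, and 35.6% and 26.9% of the others.

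**Figure D4:**
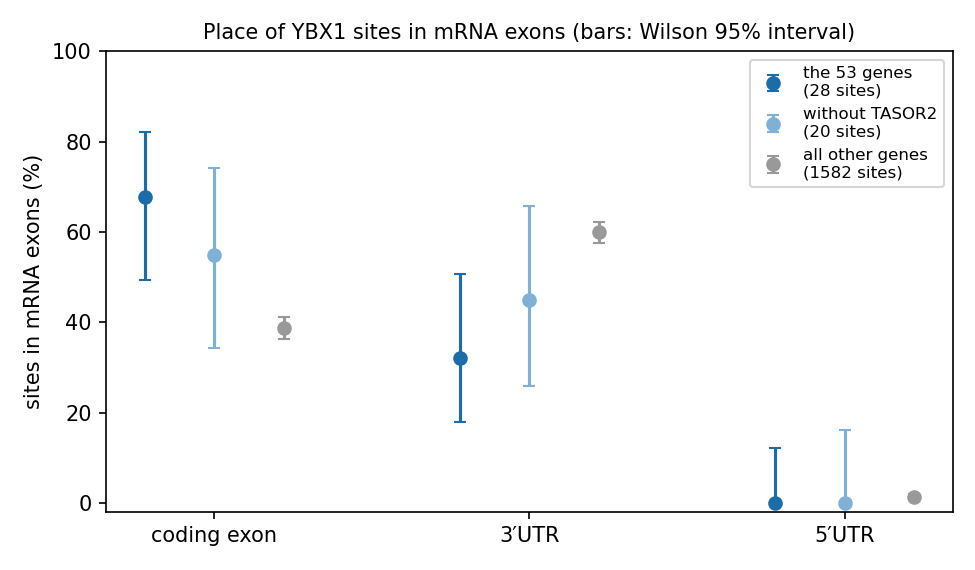
Share of sites in mRNA exons (vertical axis, %) that lie in coding exons, 3′UTRs and 5′UTRs of 1 transcript per gene, with Wilson 95% intervals. The 53 genes (28 sites) lie higher in coding exons and lower in 3′UTRs than all other genes (1582 sites), and without TASOR2 (20 sites) the interval for coding exons includes the share of all other genes.

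The sites were rich in A and C. In the 29 sites, 18 to 31 nt wide, A made up 33.0%, C 32.4%, U 29.8% and G 4.78% of the 648 bases, and A and C together 65.4% (61.7 to 69.0%), against 60.5% in the other sites. A and C made up 67.8% of coding sites of these genes and 65.4% of other coding sites, and 61.8% of 3′UTR sites of these genes and 60.1% of other 3′UTR sites. For 24 sites the local background came from windows as wide as the site, 100 nt to either side within its exon. A and C made up 66.1% of these sites on average and 50.2% of their windows, a difference of 15.9 percentage points (SD 10.6 over sites), and the site was higher in 22 of 24. ADNP site 3 was lower than its windows (48.0% and 52.0%), and RYBP site 3 equalled them (57.9%). The widest gap was in TASOR2 site 4 (76.0% and 38.0%), and over 7 TASOR2 sites it averaged 21.2 points (SD 11.4). The gap averaged 18.5 points in 15 coding sites (SD 9.63) and 11.6 points in 9 3′UTR sites (SD 11.3), and in the other listed genes 12.0 points (SD 14.0) and 12.5 points (SD 13.1) in coding and 3′UTR sites. These differences between groups of sites were not tested. G made up 4.72% of the sites and 22.7% of the windows, and with G left out of the bases counted the difference was 3.67 points. That value covers all 24 sites and not coding and 3′UTR sites apart. G made up 26.1% of the windows of coding sites and 16.95% of those of 3′UTR sites, against 4.61% and 4.89% of the sites. In the other listed genes the windows held 22.2% and 20.1% G.

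**Figure D5:**
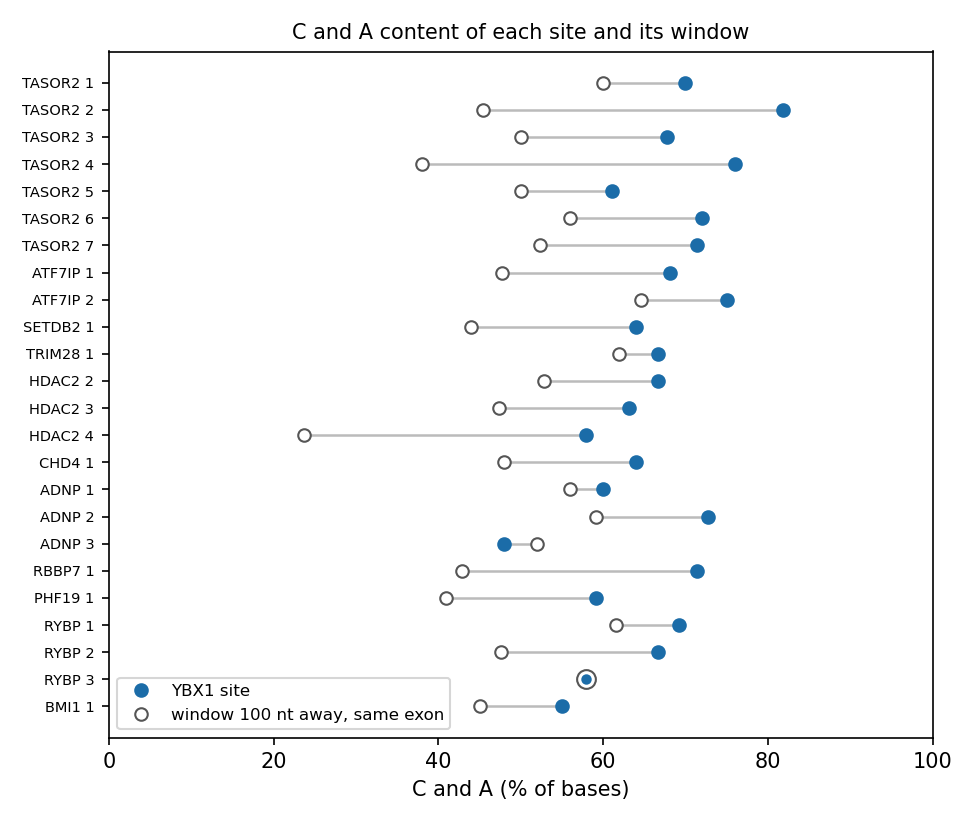
Share of A and C (horizontal axis, % of bases) in each of 24 YBX1 sites (filled points) and the mean of its windows of equal width 100 nt away in the same exon (open points). The filled point lies to the right in 22 rows, to the left for ADNP site 3, and the pair coincides for RYBP site 3.

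CAUC or CACC was present in 13 of the 29 sites (44.8%, 28.4 to 62.5%), against 35.7% of the other sites. It was in 12.2% of the 41 windows of these genes and in 13.1% of the windows of the other sites. Neither tetramer contains G, which made up 4.72% of the sites and 22.7% of the windows of these genes. A part played by G in the gap to the windows was not tested. CAUC was in 10 sites and CACC in 6. In coding exons the share was 47.4% (9 of 19) in these genes and 48.1% in other genes. Of the tetramers taken from earlier results on this list, CAAC was in 10 sites (34.5%, against 26.5% of the others) and AACA in 11 (37.9%, against 30.8%). In coding sites CAAC had 47.4% against 40.3% and AACA 52.6% against 38.7%. In 3′UTR sites CAAC and AACA were each in 1 of 9 (11.1%, 1.99 to 43.5%), the same ADNP site 3. The interval includes the shares in other 3′UTR sites, 22.3% and 28.5%. All tetramers were searched on the RNA strand only, and they can overlap within a site. A G preceded 25 of the 29 sites (86.2%, against 79.1% of the others), 28 ended in G (96.6%, against 87.5%) and 26 held no other G (89.7%, against 77.4%).

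RBBP7, HDAC2 and CHD4 each have a close relative in the same complexes, so the aligned sequence of the relative was read. RBBP7 and RBBP4 have coding sequences that are 76.0% identical. At RBBP7 site 2 the RBBP4 sequence differs at 4 of 21 bases, is likewise preceded by G, ends in G and holds no other G, yet no RBBP4 site was listed. At RBBP7 site 1 it differs at 7 of 21 bases and holds 2 inner G. At HDAC2 site 1 the HDAC1 sequence differs at 9 of 26 bases and holds 4 inner G, with 75.7% identity of the coding sequences. At the CHD4 site the sequence of CHD3, the other NuRD ATPase, differs at 3 of 25 bases with no inner G, and CHD3 had its own site beginning 57 nt from the aligned place (nt 2318 of its coding sequence). At the CHD3 site the CHD4 sequence, not shown, differs at 4 of 23 bases and holds 1 inner G. For the sites of RBBP7, HDAC2 and CHD4, the pairs that differ least are shown, with capitals marking CAUC.
RBBP7 site 2: ccucucauucaaucccuacag
RBBP4, aligned (chr1:32669303-32669323, + strand): ccuuucuuucaauccuuauag
CHD4 site: ccccucuuucuacCAUCAUCaacug
CHD3, aligned (chr17:7899374-7899398, + strand): ccccacucucuacCAUCauuaacug
CHD3 site (chr17:7899177-7899199, + strand): ucuuccucuacucacucuacaag

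Further genes of the same pathways, 74 in number, were counted from a list set beside the 53. That list was also made with earlier results of these data known. Of these, 10 had a site (13.5%, 7.51 to 23.1%), with 11 sites in all, against 24.5% of the 53 genes and 6.81% of all protein-coding genes. In coding exons there were 2 sites in PRDM2, an H3K9 methyltransferase, and 1 each in CHD3, in MGA, a DNA-binding subunit of variant PRC1, and in SCML2, a Polycomb protein whose site the authors' column gives to BEND2. In 3′UTRs there was 1 site each in IRF2BP2, a partner of TASOR2, in GATAD2B, a NuRD subunit, in BCOR, a corepressor of variant PRC1, and in CSNK2A1, a kinase subunit found with PRC1. The site of LCOR, whose gene also encodes a PRC2 partner, lay in an intron of its main transcript and in the 3′UTR of another. The IRF2BP2 site began at nt 1017 of the 3′UTR, at 35.5% of its length.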

How the data were processed

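YBX1 PAR-CLIP was done in HEK293 cells in 2 replicates. Per the methods, the authors used cutadapt (version 1.4.1) for trimming, the PARA-suite for alignment to the GRCh38 genome and transcriptome, BMix with default settings for site calling and HOMER on hg38 for annotation. The deposited values are positions with a strand, a gene name and an annotation, pooled over both replicates, with no read count.

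Positions were read as 1-based. The listed end was taken to lie 1 past the last base, where RNase T1 leaves a G. Places came from GENCODE release 44, with 1 transcript per gene (MANE Select, else canonical, else the longest coding sequence) or over all transcripts, with 3′UTRs ahead of coding exons and those ahead of other classes. Windows touched no listed site. Sequences over 30 nt were not printed, and 5 sites over 60 nt were left out of sequence counts. All genes with a site are named, except that 1 of the further pathway genes is not reported here. Of the 53 genes, sequences are printed for those with 2 or more sites and for sites with a searched tetramer. The RBBP4 and CHD3 sequences were added for comparison after their values were seen. The members and lists were chosen with earlier results of these data known. Python 3.11.15, pandas 2.3.3, scipy 1.17.1 and pysam 0.24.0 were used, checked on simulated data. No test was run.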

Additional observations from a re-analysis of the deposited data

How the results depend on the processing

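No paired analysis was possible because both replicates were pooled by the authors, and for the same reason no replicate could be left out. Under other settings 97 values stayed within 1.5 times the main count or within the spread, 12 moved and 0 changed sign. With only sites wider than the median of 22 nt, 7 of the 53 genes had a site in place of 13, with 10 sites in place of 29, 2 in 3′UTRs in place of 12, 3 in TASOR2 in place of 8, 7 in the 4 genes with the most sites in place of 18, and 734 protein-coding genes had a site in place of 1366. PRC2 then had 0 genes with a site and PRC1 had 1. Ignoring strand, or using the authors' gene names, gave 2 genes of the HUSH group with a site in place of 1. The authors' annotation placed 5 sites in 3′UTRs. With G left out, A and C exceeded the windows by 3.67 percentage points in place of 15.9. With 1 transcript per gene, 9 sites were in 3′UTRs with or without TASOR2, the latter chosen after seeing the data.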
